A study of Mus musculus with 4 samples.

Results

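The genes of fatty acid beta-oxidation described here are Cpt1a, Cpt2, Crat, Acadvl, Acadl, Acadm, Hadha, Hadhb and Etfdh, 9 of the 13085 genes in the files. They were taken as the rows whose RefSeq identifiers map to these symbols, and each gene had 1 row. RNA-seq was performed on 4 stable lines of 3T3-L1, a murine preadipocyte line that turns into fat-storing cells when given adipogenic hormones. FLAG-CACUL1 cells overexpress CACUL1 (CDK2-associated cullin 1, a co-repressor of nuclear receptors) and were compared with FLAG cells carrying the empty vector, both selected with G418. The sh-CACUL1 line expresses a short hairpin RNA against CACUL1 and has sh-Luc, with a hairpin against luciferase, as its control, both selected with hygromycin B. All 4 lines were drug-resistant colonies and were harvested on differentiation day 8. The medium that started differentiation held rosiglitazone at 5 µM, insulin at 5 µg/mL, dexamethasone at 1 µg/mL and IBMX at 0.5 mM. Medium added later held insulin at 5 µg/mL, and the paper names none of the other compounds for it. The sequencing had 1 sample per line, so no difference has a replicate check and no test was run.

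Mitochondrial beta-oxidation shortens fatty acids in repeated rounds. CPT1 on the outer mitochondrial membrane couples long-chain acyl groups to carnitine and is the step restrained by malonyl-CoA, CPT2 on the inner membrane returns them to CoA, and CRAT exchanges short-chain acyl groups between carnitine and CoA. Acyl-CoA dehydrogenases with different chain-length preferences make the first oxidation, the trifunctional protein built of HADHA and HADHB carries out the following steps on long chains, and ETFDH passes the electrons to ubiquinone. White adipocytes mainly store fatty acids, but they build up mitochondria as they differentiate.

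Expression was deposited as FPKM (fragment numbers corrected for transcript length and for the mapped total of each sample), a unit in which levels of different genes can be compared. A change here is the difference of log2(FPKM + 1), with 2-fold as the cut-off for calling a gene changed. Between 1.43e+07 and 2.4e+07 fragments per sample were estimated from the even steps of low FPKM values, with sh-Luc the deepest. At these depths the 9 genes were covered by an estimated 377 to 9728 fragments per sample. All 9 exceeded 1 FPKM in every sample. Cacul1 itself had 9.61 FPKM in FLAG against 11.8 in FLAG-CACUL1, and 10.2 in sh-Luc against 5.39 in sh-CACUL1. The change of Cacul1 was 0.27 with overexpression and -0.82 with knockdown, under 2-fold in both. Adipocyte markers set the lines apart. The summed FPKM of 8 markers (Adipoq, Fabp4, Plin1, Cidec, Lpl, Pparg, Cebpa and Cd36) was 7451 in FLAG against 913 in FLAG-CACUL1, and 1729 in sh-Luc against 16683 in sh-CACUL1. Each of the 8 was below its FLAG level in FLAG-CACUL1 and above its sh-Luc level in sh-CACUL1 by 2-fold or more. Cebpa had only 0.421 FPKM in sh-Luc, and in the paper's RT-qPCR C/EBPα was the exception to this pattern. The part of the 8 markers in the results below was not tested. In such bulk RNA fewer adipocytes and less of a transcript per adipocyte cannot be told apart. Of 6 preadipocyte and fibroblast genes measured, Thy1 (0.663 FPKM) and Dlk1 (0.220 FPKM) were below 1 FPKM in sh-Luc and above it in the other lines. The 6 summed to between 608 FPKM in sh-CACUL1 and 6646 in FLAG-CACUL1, where Col1a1 (2424) and Col3a1 (3885) made up most. They did not move alike. Pdgfra, Pdgfrb, Col1a1 and Col3a1 were higher with overexpression and lower with knockdown, at any size. Dlk1 had changes of -1.28 and 4.19, and Thy1 of 1.74 and 4.41. Pecam1, the only endothelial marker measured, stayed between 0.0217 and 0.301 FPKM, and Acta1, the only muscle marker measured, between 0.0514 and 0.679. Of the 3 leukocyte markers measured, Csf1r was at most 0.607 FPKM, Lyz2 had 66.5 FPKM in FLAG-CACUL1 and between 1.72 and 8.12 in the other lines, and Cd68 had 16.2 FPKM in FLAG and between 0.962 and 1.44 in the other lines.

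Most of the 9 genes moved in the direction of the adipocyte markers, and Cpt1a ran the opposite way. The 9 were chosen with earlier results of these data known, so shares of all genes are given for scale only. With overexpression, 6 of the 9 passed 2-fold against FLAG (14.7% of all genes did). Of these, 5 were lower (7.22% of all genes) and 1, Cpt1a, was higher (7.51% of all genes). With knockdown, 6 of the 9 also passed 2-fold against sh-Luc (21.3% of all genes). Of these, 5 were higher (4.94% of all genes) and Cpt1a alone was lower (16.4% of all genes). The 5 were the same in both comparisons, namely Cpt2, Crat, Acadvl, Acadm and Hadhb, a combination met by 1.69% of all genes. Cpt1a had the mirror combination, met by 3.02% of all genes. Without a cut-off 7 of the 9 were lower with overexpression and higher with knockdown, against 16.1% of all genes, and Cpt1a alone was the other way round, as were 43.4% of all genes. The remaining gene, Acadl, was higher in both. With overexpression the 9 genes had a median change of -1.03 beside 0.09 over all genes. With knockdown it was 1.44 beside -0.30 over all genes, so that the 9 genes stood against a downward shift of the whole sh-CACUL1 sample. Median-of-ratios scaling moved the median of all genes to 0.01 and raised the median of the 9 genes to 1.91. Of all genes called in sh-CACUL1, 23.2% were higher as deposited and 55.8% after that scaling, and in FLAG-CACUL1 the share went from 51.0% to 39.2%.

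**Figure D1:**
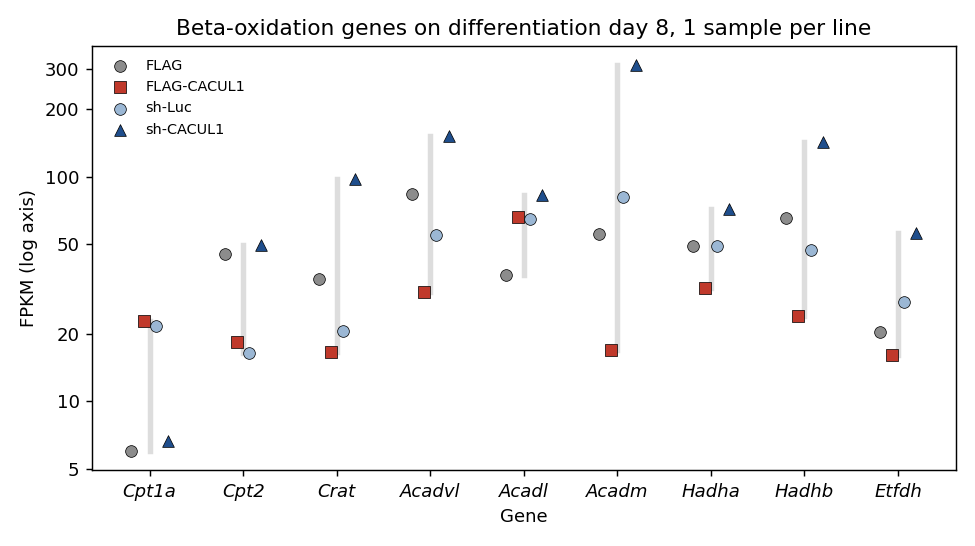
FPKM (log axis) of the 9 beta-oxidation genes in the 4 lines, 1 point per sample, with a grey bar from the lowest to the highest value of each gene. The sh-CACUL1 triangle is the highest point for 8 genes, and for Cpt1a it lies near the bottom, at 6.69 FPKM beside 22.8 in FLAG-CACUL1.

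**Figure D2:**
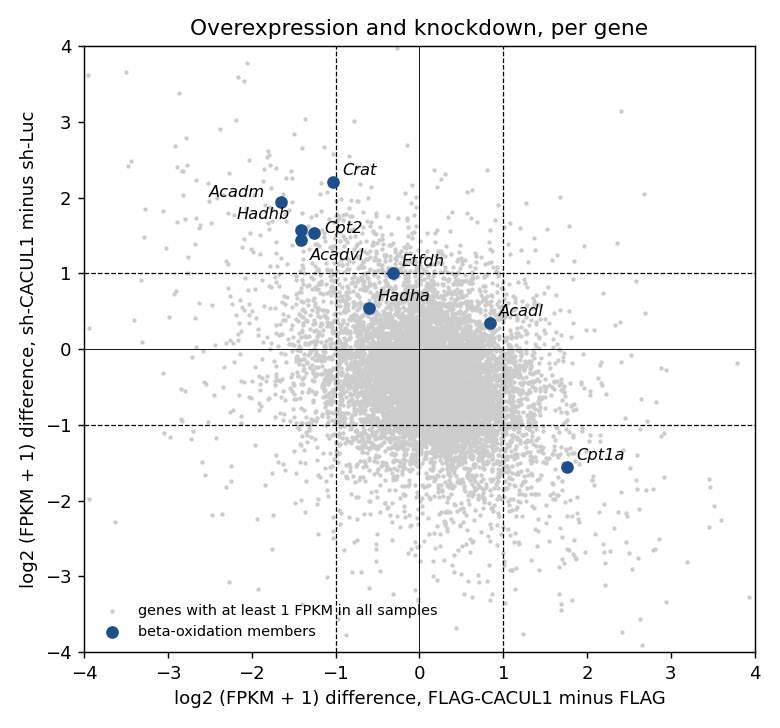
Difference of log2(FPKM + 1) between FLAG-CACUL1 and FLAG (horizontal) and between sh-CACUL1 and sh-Luc (vertical) for 9533 genes that reached 1 FPKM in each sample (grey) and the 9 beta-oxidation genes (blue), with dashed lines at 2-fold. A further 30 genes lie outside the axes. Cpt2, Crat, Acadvl, Acadm and Hadhb lie in the upper left corner and Cpt1a in the lower right.

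The carnitine shuttle held genes that passed 2-fold in opposite directions. Cpt1a, encoding the liver isoform of CPT1 (chromosome 19 of GRCm38, 3322326 to 3385735), had 6.02 FPKM in FLAG against 22.8 in FLAG-CACUL1, and 21.7 in sh-Luc against 6.69 in sh-CACUL1. Thus 2 lines were high and 2 were low, FLAG-CACUL1 with sh-Luc and FLAG with sh-CACUL1. The high pair differed by 0.07 on the log2 scale, and the 95% interval for counting error, from -0.03 to 0.17, held 0. The low pair differed by 0.15 with an interval from -0.05 to 0.35. Between the pairs the level of Cpt1a was 3.79-fold higher in FLAG-CACUL1 than in FLAG and 3.24-fold lower in sh-CACUL1 than in sh-Luc. On the log2(FPKM + 1) scale the changes were 1.76 and -1.56. Against the other control both nearly vanished, to 0.07 for FLAG-CACUL1 against sh-Luc and 0.13 for sh-CACUL1 against FLAG, and the controls themselves differed 3.61-fold, with FLAG the lower.

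Cpt2 (chromosome 4, 107903982 to 107923589) showed the reverse arrangement of the same pairs. It had 45.3 FPKM in FLAG against 18.3 in FLAG-CACUL1, and 16.5 in sh-Luc against 49.5 in sh-CACUL1. The changes were -1.26 with overexpression and 1.53 with knockdown, and they too shrank to 0.14 and 0.13 against the other control. The ratio of Cpt2 to Cpt1a, which no scale factor per sample can alter, was 7.52 in FLAG and 7.40 in sh-CACUL1 but 0.804 in FLAG-CACUL1 and 0.761 in sh-Luc. The transcript of the inner-membrane enzyme thus exceeded that of the outer-membrane enzyme in 2 lines only. Crat (chromosome 2, 30400476 to 30416017), the carnitine acetyltransferase gene, had 34.9 FPKM in FLAG against 16.6 in FLAG-CACUL1, and 20.5 in sh-Luc against 97.7 in sh-CACUL1. Its change of 2.20 in sh-CACUL1 was the highest among the 9 genes, while its change of -1.03 in FLAG-CACUL1 was just past the cut-off.

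The promoter sequences of Cpt1a, Acadm and Acadvl are shown because these genes moved together or apart and because their windows hold the hexamer AGGTCA, the letters that nuclear receptors such as PPARγ recognise as a repeat. RefSeq sequences for GRCm38.p6 matched 8 of the 9 genes, Crat being the exception. Each line below gives the 250 bases before a transcript start in the RefSeq table, 5′ to 3′ on the strand of the gene, with AGGTCA or its reverse complement TGACCT in capitals. For 7 of the 8 genes that start is the outer end of the gene as printed here. For Cpt1a it is an inner start, 3323301, which lies 975 bases inside the printed gene and 16 bases after the GENCODE M21 start (3323285) of the transcript measured, so that the window printed for Cpt1a lies within the gene's span.
Cpt1a (chr19:3323051-3323300, plus strand): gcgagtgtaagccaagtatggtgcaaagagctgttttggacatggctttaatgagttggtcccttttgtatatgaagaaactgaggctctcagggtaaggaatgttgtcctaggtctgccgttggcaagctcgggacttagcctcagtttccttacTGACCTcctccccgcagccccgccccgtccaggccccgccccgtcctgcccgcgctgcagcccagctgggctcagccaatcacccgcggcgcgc
Acadm (chr3:153944644-153944893, minus strand): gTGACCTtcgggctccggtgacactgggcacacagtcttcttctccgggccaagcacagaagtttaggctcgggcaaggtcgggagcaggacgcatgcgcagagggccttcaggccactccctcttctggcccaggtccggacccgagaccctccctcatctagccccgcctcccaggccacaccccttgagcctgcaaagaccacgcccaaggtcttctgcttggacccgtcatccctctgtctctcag
Acadvl (chr11:70015429-70015678, minus strand): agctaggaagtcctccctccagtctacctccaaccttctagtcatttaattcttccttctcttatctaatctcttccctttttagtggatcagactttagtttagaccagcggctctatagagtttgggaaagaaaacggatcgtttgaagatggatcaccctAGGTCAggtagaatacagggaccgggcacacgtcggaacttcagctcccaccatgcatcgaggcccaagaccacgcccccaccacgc
The hexamer, on either strand, was present in 3 of the 8 windows and in 14.0% of all 32851 windows of this length. It began 87 bases before the start in Acadvl and 249 in Acadm, and in Cpt1a 94 bases before the inner start. The direct repeat of AGGTCA with 1 base between the copies was in none of the 8 windows and in 0.0335% of all, and TCAAGGTCA, which contains the hexamer, was in none of the 8 and 0.387% of all. These matches describe letters in short windows only.

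The acyl-CoA dehydrogenases, which open each round of oxidation, did not move as a block. Acadm, the medium-chain enzyme gene (chromosome 3, 153922353 to 153944643), had 55.5 FPKM in FLAG against 16.9 in FLAG-CACUL1, and 81.1 in sh-Luc against 313 in sh-CACUL1. This was the widest range of the 9 genes, 18.5-fold from FLAG-CACUL1 to sh-CACUL1. The changes were -1.66 and 1.94 against the own controls, and -2.19 and 2.48 against the other control, so Acadm was past 2-fold whichever control was used. A processed pseudogene, Gm5131, shares 11.8% of the 31-base stretches of the Acadm transcript, and reads from it may have been counted there.

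Acadvl, the very-long-chain enzyme gene (chromosome 11, 70010183 to 70015428), had 84.0 FPKM in FLAG against 30.8 in FLAG-CACUL1, and 55.1 in sh-Luc against 152 in sh-CACUL1. It was 2.73-fold lower with overexpression and 2.75-fold higher with knockdown. The long-chain enzyme gene Acadl (chromosome 1, 66830839 to 66863309) went its own way, with 36.6 FPKM in FLAG against 66.1 in FLAG-CACUL1, and 64.8 in sh-Luc against 82.7 in sh-CACUL1. FLAG was low and the other lines were close together, with FLAG-CACUL1 and sh-Luc within counting error (log2 difference 0.03, interval -0.06 to 0.11). Neither change of Acadl reached 2-fold (0.84 and 0.35). As a result the makeup of the dehydrogenase transcripts differed between lines. Acadl supplied 58.1% of the summed FPKM of Acadvl, Acadl and Acadm in FLAG-CACUL1 and 15.1% in sh-CACUL1. Acadm supplied 14.9% and 57.2% in the same lines, and the ratio of Acadm to Acadl ran from 0.256 in FLAG-CACUL1 over 1.25 in sh-Luc and 1.52 in FLAG to 3.79 in sh-CACUL1.

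The subunits of the trifunctional protein are encoded head to head on chromosome 5, Hadha on the minus strand (30119423 to 30154980) and Hadhb on the plus strand (30155253 to 30184593), with 272 bases between their RefSeq starts and 85 bases in GENCODE M21. The 250 bases before Hadhb are shown because they make up most of the 272 bases between the RefSeq starts, and they do not hold AGGTCA. In GENCODE M21 Hadha starts at 30155162, so part of this window lies inside Hadha and only 85 bases separate the genes.
Hadhb (chr5:30155003-30155252, plus strand): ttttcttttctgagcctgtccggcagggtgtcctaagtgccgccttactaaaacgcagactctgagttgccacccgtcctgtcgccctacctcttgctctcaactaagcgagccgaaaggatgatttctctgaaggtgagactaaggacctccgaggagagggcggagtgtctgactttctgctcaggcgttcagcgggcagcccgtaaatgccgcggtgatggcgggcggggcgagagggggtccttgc
The levels of Hadha and Hadhb moved by unequal amounts. Hadha, the subunit with hydratase and dehydrogenase activity, had 48.9 FPKM in FLAG against 31.8 in FLAG-CACUL1, and 49.2 in sh-Luc against 72.0 in sh-CACUL1. The controls did not differ beyond counting error, and neither change reached 2-fold (-0.60 and 0.54). Hadhb, the thiolase subunit, had 65.7 FPKM in FLAG against 24.1 in FLAG-CACUL1, and 47.3 in sh-Luc against 143 in sh-CACUL1, with changes of -1.41 and 1.58. The ratio of Hadhb to Hadha was 0.757 in FLAG-CACUL1, 0.963 in sh-Luc, 1.34 in FLAG and 1.99 in sh-CACUL1. The processed pseudogene Gm13910 shares 65.2% of the 31-base stretches of the Hadhb transcript, so the Hadhb level is uncertain to the extent that reads were split or merged between them.

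**Figure D3:**
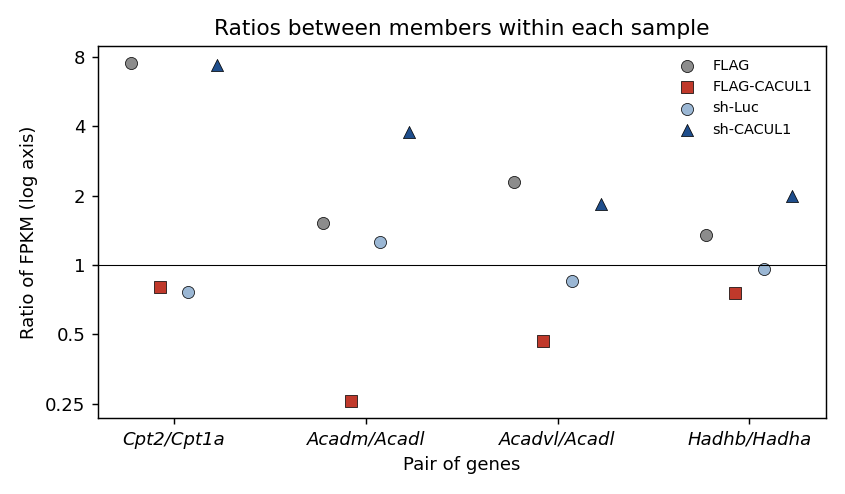
Ratio of the FPKM of 2 genes within each of the 4 samples (log axis), for 4 pairs of beta-oxidation genes. Each ratio is lowest in FLAG-CACUL1 or sh-Luc and highest in sh-CACUL1 or FLAG, from 0.761 to 7.52 for Cpt2 to Cpt1a and from 0.757 to 1.99 for Hadhb to Hadha.

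Etfdh, the ubiquinone oxidoreductase gene (chromosome 3, 79603788 to 79628767), had 20.4 FPKM in FLAG against 16.1 in FLAG-CACUL1, and 27.6 in sh-Luc against 56.2 in sh-CACUL1. The level was highest in sh-CACUL1, and all neighbouring lines in its order differed beyond counting error. Its change there, 0.999 (2.03-fold before the pseudocount was added), fell just short of the cut-off on the log2(FPKM + 1) scale, and in FLAG-CACUL1 the change was -0.32. Etfa and Etfb, which encode the flavoprotein that feeds ETFDH, changed by -0.88 and -0.45 in FLAG-CACUL1 and were higher with knockdown, Etfa by 0.93 and Etfb with 248 FPKM in sh-CACUL1 beside 86.8 in sh-Luc.

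Across the lines, sh-CACUL1 had the highest level of 8 of the 9 genes (18.8% of all genes peaked there). For 6 of them FLAG-CACUL1 also had the lowest level, a combination met by 6.82% of all genes. The 9 genes summed to 397 FPKM in FLAG against 243 in FLAG-CACUL1, and 384 in sh-Luc against 973 in sh-CACUL1. The adipocyte marker sum rose from FLAG-CACUL1 over sh-Luc and FLAG to sh-CACUL1. It was mostly Fabp4 (12543 of 16683 FPKM in sh-CACUL1), and Plin1, Lpl, Pparg and Cebpa were instead highest in FLAG. The full order of the sum was shared by 3 of the 9 genes (Acadvl, Hadhb and Crat). In 3 others (Acadm, Hadha and Etfdh) FLAG and sh-Luc changed places, for Hadha within counting error. Of the 27 pairs of lines next to each other in a gene's order, 4 did not differ beyond counting error, both pairs of Cpt1a and a pair each of Acadl and Hadha. The controls differ in vector and selection drug and are separate lines with 1 sample each, and the source of their differences was not tested. FLAG and sh-Luc were at least 2-fold apart for Cpt1a and Cpt2 (21% of all genes). Cpt1a was lower in FLAG (12.4% of all genes) and Cpt2 higher (8.58% of all genes). With the controls exchanged, only Acadm passed 2-fold in FLAG-CACUL1 (9.9% of all genes), and it was lower (4.87% of all genes), with none higher (5.04% of all genes). In sh-CACUL1 5 genes passed 2-fold against FLAG (22.9% of all genes). They were Acadm, Acadl, Hadhb, Crat and Etfdh, all higher (7.45% of all genes), and none was lower (15.4% of all genes).

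**Figure D4:**
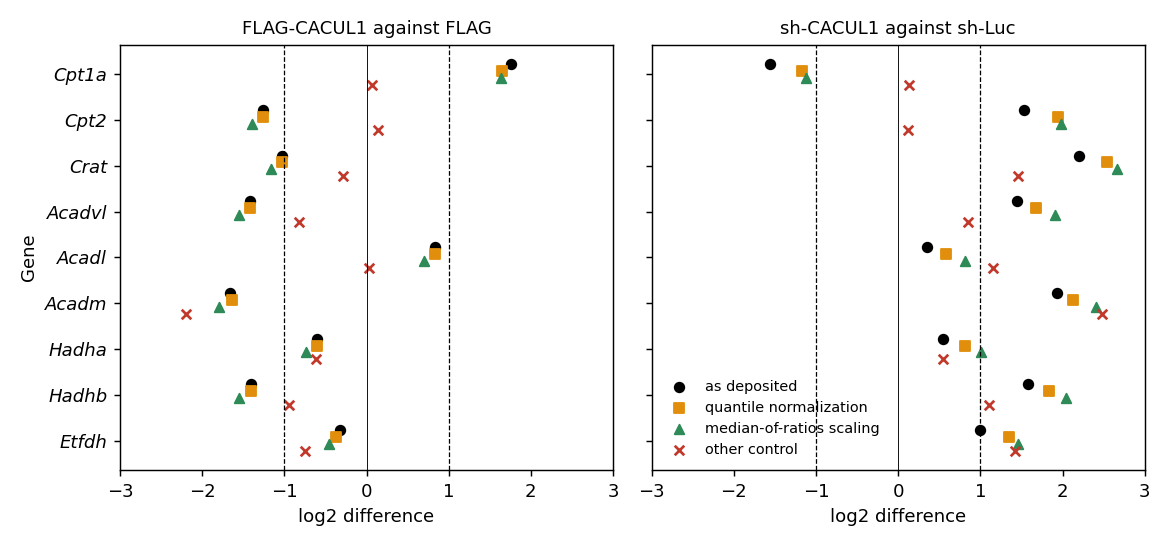
Log2 difference of the 9 beta-oxidation genes in both comparisons as deposited, after quantile normalization, after median-of-ratios scaling and against the other control, with dashed lines at 2-fold. The scalings keep every direction, whereas the other control moves Cpt1a to 0.07 and 0.13 and Cpt2 to 0.14 and 0.13.

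The other genes of the mitochondrial lists had milder median changes, but the members and lists were chosen with earlier results of these data known. Not all of their products are mitochondrial, as that of Slc22a5 acts at the plasma membrane and that of Crot in peroxisomes. The carnitine shuttle, the acyl-CoA dehydrogenases, the later steps, the auxiliary enzymes for unsaturated fatty acids and electron transfer held 19 further genes. Of these, 4 were at least 2-fold lower (7.22% of all genes) and 1, Cpt1c, higher (7.51% of all genes) with overexpression, with a median of -0.53. In sh-CACUL1 6 were at least 2-fold higher (4.94% of all genes) and 1, again Cpt1c, lower (16.4% of all genes), with a median of 0.86. Lower with overexpression and higher with knockdown, at any size, were 14 of the 19 (16.1% of all genes). Slc22a5, encoding the plasma membrane carnitine transporter, was past 2-fold in both comparisons (-1.40 and 1.10). Against the other control Slc22a5 stayed under 2-fold (-0.68 and 0.38). Slc25a20, encoding the carnitine-acylcarnitine carrier, was past 2-fold only with knockdown (0.25 and 1.20). The other CPT1 isoforms bear on Cpt1a. Cpt1c, a neuronal isoform gene, had 5.40 FPKM in FLAG against 16.6 in FLAG-CACUL1, and 7.17 in sh-Luc against 2.28 in sh-CACUL1, the same directions as Cpt1a (1.46 and -1.32). Cpt1b, the muscle isoform gene, had at most 1.32 FPKM, in sh-CACUL1. The sum of the 3 isoforms was 11.4 FPKM in FLAG against 39.6 in FLAG-CACUL1, and 29.6 in sh-Luc against 10.3 in sh-CACUL1, of which Cpt1a made up between 52.7% and 73.2%. Crot, which encodes the octanoyltransferase of peroxisomes, also ran with Cpt1a but under 2-fold (0.72 and -0.72). Among the other dehydrogenases, the short-chain gene Acads had changes of -0.53 and 1.22, and Acad9, Acad10 and Acad11 stayed under 2-fold in both comparisons. The 6 genes of hydration, the later oxidation and thiolysis, Hadha and Hadhb included, were all lower in FLAG-CACUL1 and all higher in sh-CACUL1 at any size, and Echs1, the short-chain hydratase gene, reached -0.90 and 1.36.

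**Figure D5:**
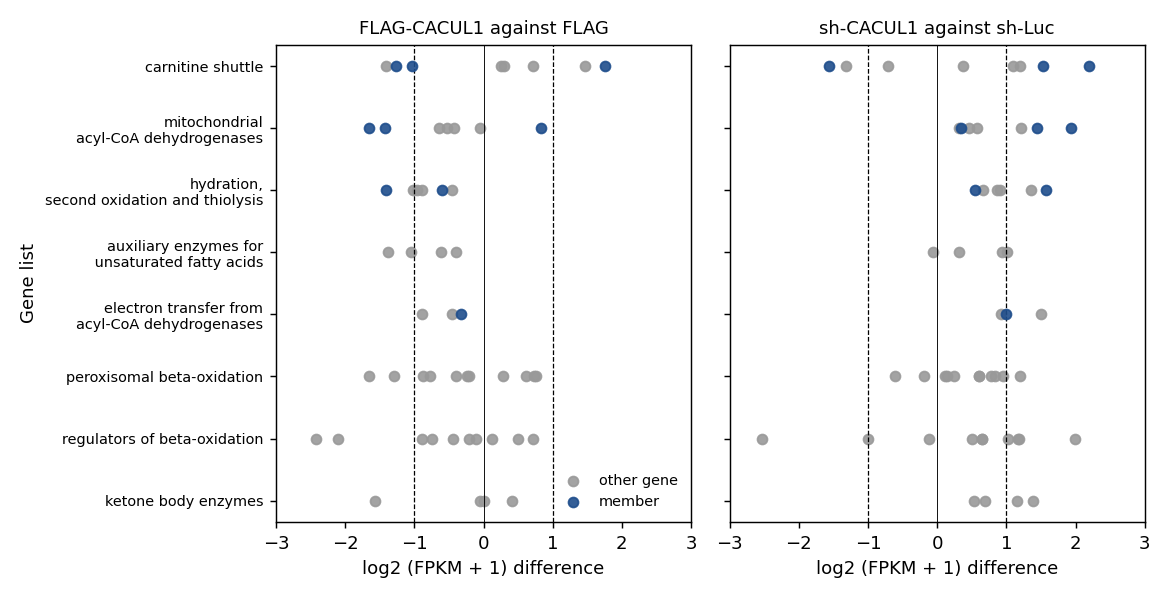
Difference of log2(FPKM + 1) for the measured genes of 8 lists, 1 point per gene, with the 9 beta-oxidation genes in blue and dashed lines at 2-fold. The mitochondrial enzyme lists lie mostly left of 0 in FLAG-CACUL1 and right of 0 in sh-CACUL1, while the carnitine shuttle, with Cpt1a at 1.76 and -1.56, spreads to both sides.

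The regulators of the pathway did not move alike. Pparg, the nuclear receptor that drives adipocyte differentiation, had changes of -2.42 and 2.00. Both became small against the other control (-0.25 and -0.18), and the knockdown value turned negative. The control lines alone were 2.17 apart for Pparg on this scale, with FLAG the higher. Ppargc1b, encoding a coactivator of mitochondrial genes, had -2.11 and 0.65, and its relative Ppargc1a ran the other way with 0.72 in FLAG-CACUL1 and 1.57 FPKM in sh-CACUL1 beside 4.14 in sh-Luc. The change of Esrra, a nuclear receptor gene for oxidative metabolism, was -0.20 with overexpression and 1.02 with knockdown. Mlycd, whose product removes malonyl-CoA, the inhibitor of CPT1, had -0.11 and 1.19, and Acacb, whose product makes malonyl-CoA at mitochondria, had -0.44 and 0.50. Of 10 regulators measured, 2 were at least 2-fold lower with overexpression (7.22% of all genes) and none higher (7.51% of all genes). In sh-CACUL1 4 were higher (4.94% of all genes) and 1, Pdk4, was lower, at -2.53 (16.4% of all genes). Ppara was not analysed here.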

How the data were processed

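The authors deposited FPKM for 13110 rows of RefSeq transcripts per sample, with 4 samples on differentiation day 8. The labels name mm10 as the genome build. The sources used here do not state the aligner, the program that computed FPKM, the scaling between samples or any filter on low values. Rows were joined to symbols through GENCODE M21 on GRCm38 (196 rows had none), and 50 rows of 25 symbols were summed. Changes were differences of log2(FPKM + 1), with a pseudocount of 1 that understates those of low genes, and genes counted as changed at 2-fold.

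Fragments were estimated from the spacing of FPKM multiplied by transcript length (transcripts of at least 3000 bases). Exact binomial 95% intervals of ratios rest on these estimates, without the pseudocount, and cover counting error only. Members and gene lists were chosen with earlier results of these data known. The text names the 9 members, genes of the pathway lists that passed 2-fold in both comparisons or are isoforms of a member, other list genes as examples (Slc25a20, Crot, Echs1, Etfa, Etfb, the regulators, and the peroxisomal, marker and reference genes, chosen after their values were seen), and the 5 genes nearest in pattern. Alternatives changed the pseudocount, scaling, control, summing, filter or cut-off. Some results of the lists are not reported here. The scripts were tested on simulated data. Python 3.11.15, numpy 2.4.6, pandas 2.3.3, scipy 1.17.1 and matplotlib 3.10.9 were used.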

Additional observations from a re-analysis of the deposited data

How the results depend on the processing

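Of the alternatives tried, only the exchange of controls changed the sign of any of the 9 genes, giving 0.13 for Cpt1a in sh-CACUL1 (-1.56 with the own control) and 0.14 for Cpt2 in FLAG-CACUL1 (-1.26). It also left 1 gene past 2-fold in FLAG-CACUL1 instead of 6, and medians of -0.61 for overexpression and 1.11 for knockdown. The cut-off of 3-fold left 2 genes in each comparison (Cpt1a and Acadm in FLAG-CACUL1, Acadm and Crat in sh-CACUL1), beside 5.07% and 7.15% of all genes. Median-of-ratios scaling gave medians of -1.17 and 1.91, with 8 genes past 2-fold in sh-CACUL1 (16.9% of all genes), and quantile normalization gave 1.68 in sh-CACUL1. Among all genes, 1928 passed 2-fold in FLAG-CACUL1 and 2788 in sh-CACUL1. Without a pseudocount 2192 were higher and 1583 lower in FLAG-CACUL1, and 1362 higher and 3437 lower in sh-CACUL1. A pseudocount of 0.1 gave 1786 higher and 1375 lower in FLAG-CACUL1. The cause of these shifts was not tested. No paired analysis was possible because each line had 1 sample, and for the same reason no replicate could be left out.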

Other observations

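Beta-oxidation also runs in peroxisomes, which shorten very long chains. Of the peroxisomal genes, Scp2, a thiolase and sterol carrier gene, was past 2-fold in both comparisons, at -1.65 with overexpression and 1.20 with knockdown. Hsd17b4, the multifunctional enzyme gene, was higher in both comparisons (0.72 and 0.77), as Acadl was among the mitochondrial genes. Cox8b, a subunit gene characteristic of brown fat, had 22.5 FPKM in FLAG against 2.22 in FLAG-CACUL1, and 2.23 in sh-Luc against 32.6 in sh-CACUL1, the arrangement of Cpt2. The other brown and beige markers listed (Ucp1, Cidea, Dio2, Prdm16 and Elovl3) were not analysed here.

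The genes with the level pattern nearest to Cpt1a over the 4 samples, by distance of centred log2(FPKM + 1) among 9562 other genes, were 1600002K03Rik (0.153), Arhgef25 (0.186), Dzip1 (0.200), Ankrd52 (0.205) and Lrfn4 (0.206). None of these belonged to the pathway lists. Nearest to the mean profile of the 9 genes were Pdk2 (0.0429), Eci1 (0.0643), Mcph1 (0.0907), Acat3 (0.104) and Ndufb5 (0.104). Pdk2 encodes a pyruvate dehydrogenase kinase and Eci1 the enoyl-CoA isomerase for unsaturated fatty acids. With 4 samples, many profiles lie close together by construction. Of the 9 genes themselves, Etfdh (0.321) and Hadha (0.400) were closest to the mean profile and Cpt1a (2.57) was farthest.

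Of 6 reference genes, Gapdh had 9160 FPKM in FLAG and between 1342 and 1851 in the other lines, while Tbp stayed between 7.12 and 9.28. Hprt and Actb passed 2-fold with knockdown, at 1.27 and -1.34, and Ppia and Rplp0 were under 2-fold in both comparisons.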
